A study of Mus musculus with 24 samples.

Results

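The nuclear genes of oxidative phosphorylation were described in whole cochleae of mice exposed to noise or to sham exposure, by day or at night, after removal of the adrenal glands or a sham operation. Members were the gene symbols that begin with Nduf followed by a subunit letter and number, the 4 Sdh subunits, and the symbols that begin with Uqcr, with Cox4 to Cox8 or with Atp5, with a summed count of at least 240 over the 24 libraries. Of the 23420 entries with counts, 84 matched the symbols and 81 reached the summed count: 34 of complex I, 4 of complex II, 8 of complex III, 18 of complex IV and 17 of complex V. The 17 include Atp5s and Atp5sl (Dmac2 in GENCODE vM21), which are associated factors and not subunits. Atp5sl is counted with complex V by its symbol only. The 3 matches left out were Ndufs5 with 0 counts, Cox8c with 1 and Cox7b2 with 27, and the lowest members inside the limit were Ndufa4l2 with 1011 counts, Cox4i2 with 1351 and Cox6a2 with 1474. All 81 passed the filter on low counts that left 16607 genes for testing. No symbol of a mitochondrially encoded subunit was found in the table, and these subunits were not analysed here.

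The mice were of strain CBA/Sca and 12 weeks old, and the labels do not give their sex. The 8 groups, with 3 libraries each (a, b and c), were day noise ADX, day noise sham-operated, night noise ADX, night noise sham-operated, day sham exposure ADX, day sham exposure sham-operated, night sham exposure ADX and night sham exposure sham-operated, where ADX stands for adrenalectomy, which removes the main source of glucocorticoid and of aldosterone. Every animal had thus had an operation, and every animal labelled as unexposed had a sham exposure. The noise spanned 6 to 12 kHz at 100 dB SPL for 1 h and began at zeitgeber time (ZT, hours after lights on) 3 by day and 15 at night. The design text places collection 2 h after the noise, which would be ZT 6 and 18, whereas the sample labels give ZT 11 and 23, and the difference was not resolved here. Nothing in the labels tells whether a group's libraries came from separate animals, so the p-values may measure only the spread between these samples.

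Oxidative phosphorylation makes most of the ATP of resting cells. Complex I and complex II pass electrons from NADH and from succinate to ubiquinone, complex III passes them on to cytochrome c and complex IV to oxygen. Complexes I, III and IV pump protons across the inner mitochondrial membrane, and complex V, the ATP synthase, uses the return of those protons to make ATP. Most subunits are encoded in the nucleus and imported. The stria vascularis, which keeps up the endocochlear potential, is rich in mitochondria, and hair cells and spiral ganglion neurons also depend on respiration.

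Promoters of the family are known to carry sites of a few shared factors, so the windows from 250 bases before to 50 after the RefSeq start of each gene (GRCm38.p6) were searched, and 67 of the 81 members were matched. The NRF1 motif (GCGC, then A and any base, then GCGC) was found on either strand in 16 of these 67 promoters (23.9%), against 7.17% of all 17492 promoters in the table. CCGGAA, the core bound by ETS factors such as GABPA, was found in 26 (38.8% against 20.9%), and AAGATGGCG, bound by YY1, in 8 (11.9% against 2.14%). At least 1 of these 3 motifs was held by 40 of the 67 (59.7% against 26.7%), with no overlap between hits of different motifs. The members' windows also had a median GC content of 58.3% against 57.3% in all promoters, and a median of 19 CpG against 15. The palindromic cyclic AMP response element TGACGTCA was found in 4 (5.97% against 2.54%), TCAAGGTCA, bound by estrogen-related receptors, in 2 (2.99% against 0.377%), and the hypoxia response letters TACGTG in 1 (1.49% against 3.74%). A match of letters is a description of the sequence and does not show that a factor binds there. The 150 bases before the start are printed for 5 members that hold the NRF1 letters and for 2 muscle-type isoforms that hold none of the motifs, 5′ to 3′ on the gene's own strand, with NRF1 and ETS hits in capitals.
Sdha: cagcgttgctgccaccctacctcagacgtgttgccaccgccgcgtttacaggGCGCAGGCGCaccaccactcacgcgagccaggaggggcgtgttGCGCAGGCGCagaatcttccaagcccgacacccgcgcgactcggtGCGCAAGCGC
Sdhd: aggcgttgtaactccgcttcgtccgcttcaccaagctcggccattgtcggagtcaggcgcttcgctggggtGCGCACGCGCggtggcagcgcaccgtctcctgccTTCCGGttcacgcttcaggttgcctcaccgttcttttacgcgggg
Cox6a1: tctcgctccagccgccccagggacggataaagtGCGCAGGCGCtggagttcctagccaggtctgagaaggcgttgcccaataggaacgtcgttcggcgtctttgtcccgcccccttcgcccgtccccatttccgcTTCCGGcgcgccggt
Atp5h: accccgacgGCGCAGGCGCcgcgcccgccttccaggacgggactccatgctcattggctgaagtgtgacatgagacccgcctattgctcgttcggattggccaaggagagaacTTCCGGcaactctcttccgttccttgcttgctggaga
Ndufs6: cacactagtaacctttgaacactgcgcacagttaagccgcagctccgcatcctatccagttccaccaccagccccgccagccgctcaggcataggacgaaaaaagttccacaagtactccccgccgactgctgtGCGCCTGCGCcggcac
Cox7a1: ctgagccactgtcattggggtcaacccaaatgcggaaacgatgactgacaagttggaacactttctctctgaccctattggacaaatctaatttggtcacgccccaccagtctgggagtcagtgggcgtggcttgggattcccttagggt
Cox8b: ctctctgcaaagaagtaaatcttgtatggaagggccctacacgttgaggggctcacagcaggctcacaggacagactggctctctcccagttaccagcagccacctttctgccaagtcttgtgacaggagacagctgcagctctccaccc

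These windows lie at chr13:74350241-74350390 (minus strand) for Sdha, the flavoprotein of complex II, and chr9:50603850-50603999 (minus) for Sdhd, one of its membrane anchors. That of Cox6a1, the widely expressed form of a complex IV subunit, is chr5:115348959-115349108 (minus), that of Atp5h, a stalk subunit of the ATP synthase, chr11:115419920-115420069 (minus), and that of Ndufs6, a zinc-binding subunit of complex I, chr13:73328483-73328632 (minus). Those of Cox7a1 and Cox8b, isoforms known from heart, skeletal muscle and brown fat, are chr7:30184021-30184170 (plus) and chr7:140900447-140900596 (minus). Sdha held 3 copies of the NRF1 letters, beginning 98, 55 and 10 bases before the start. The 16 members with the NRF1 letters had a median of 116 CPM (counts scaled to the library's total) per kilobase of transcript, against 103 for those without. For the ETS core the order was the other way, with 94.4 for the 26 members that hold it against 108 for those without, and likewise for the YY1 letters, with 86.9 for 8 members against 108. In the comparison of noise with sham exposure pooled over time and surgery the median log2 change was 0.04 with each of the 3 motifs, against 0.05 without it. None of these differences was tested.

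The libraries held 18894996 to 36108962 counts, of which the members took 0.906 to 1.03%. The defining genes of cochlear cells were present: the summed level of 8 otic genes was 4249 to 7135 CPM (scaled by trimmed mean of M-values), of 8 stria vascularis genes 1764 to 2408 CPM, of 8 spiral ganglion genes 1589 to 2621 CPM and of 8 hair cell genes 186 to 295 CPM. Neutrophil and marrow genes summed to 5999.8 to 12483 CPM and erythroid genes to 1946 to 3779.9 CPM, so genes of blood-forming cells were detected in every library. In such bulk samples fewer cells of a type and less RNA per cell cannot be told apart. The library night noise ADX a carried pituitary transcripts (9639 CPM over 3 genes, against at most 133 CPM in any other), and a cerebellar list was highest in the libraries night noise sham-operated b (299 CPM) and, from unexposed mice, day sham exposure sham-operated b, at 334 CPM. Every library held part of that list, with at least 1715 counts of Zic2 and 951 of Fat2. Gabra6 was at 0 in 4 libraries and Pcp2 in 7. The 3 libraries are named below by these transcripts, though the others are not free of them. Day noise ADX b stood apart in the members themselves: their median was 0.16 above its 24-library mean in log2 CPM, and 46 of the 81 members had their highest level of all libraries there. That library was also the largest, had the highest neutrophil sum, and had a median of 0.43 above the mean over 80 cytosolic ribosomal genes, against 0.17 in the next.

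**Figure D1:**
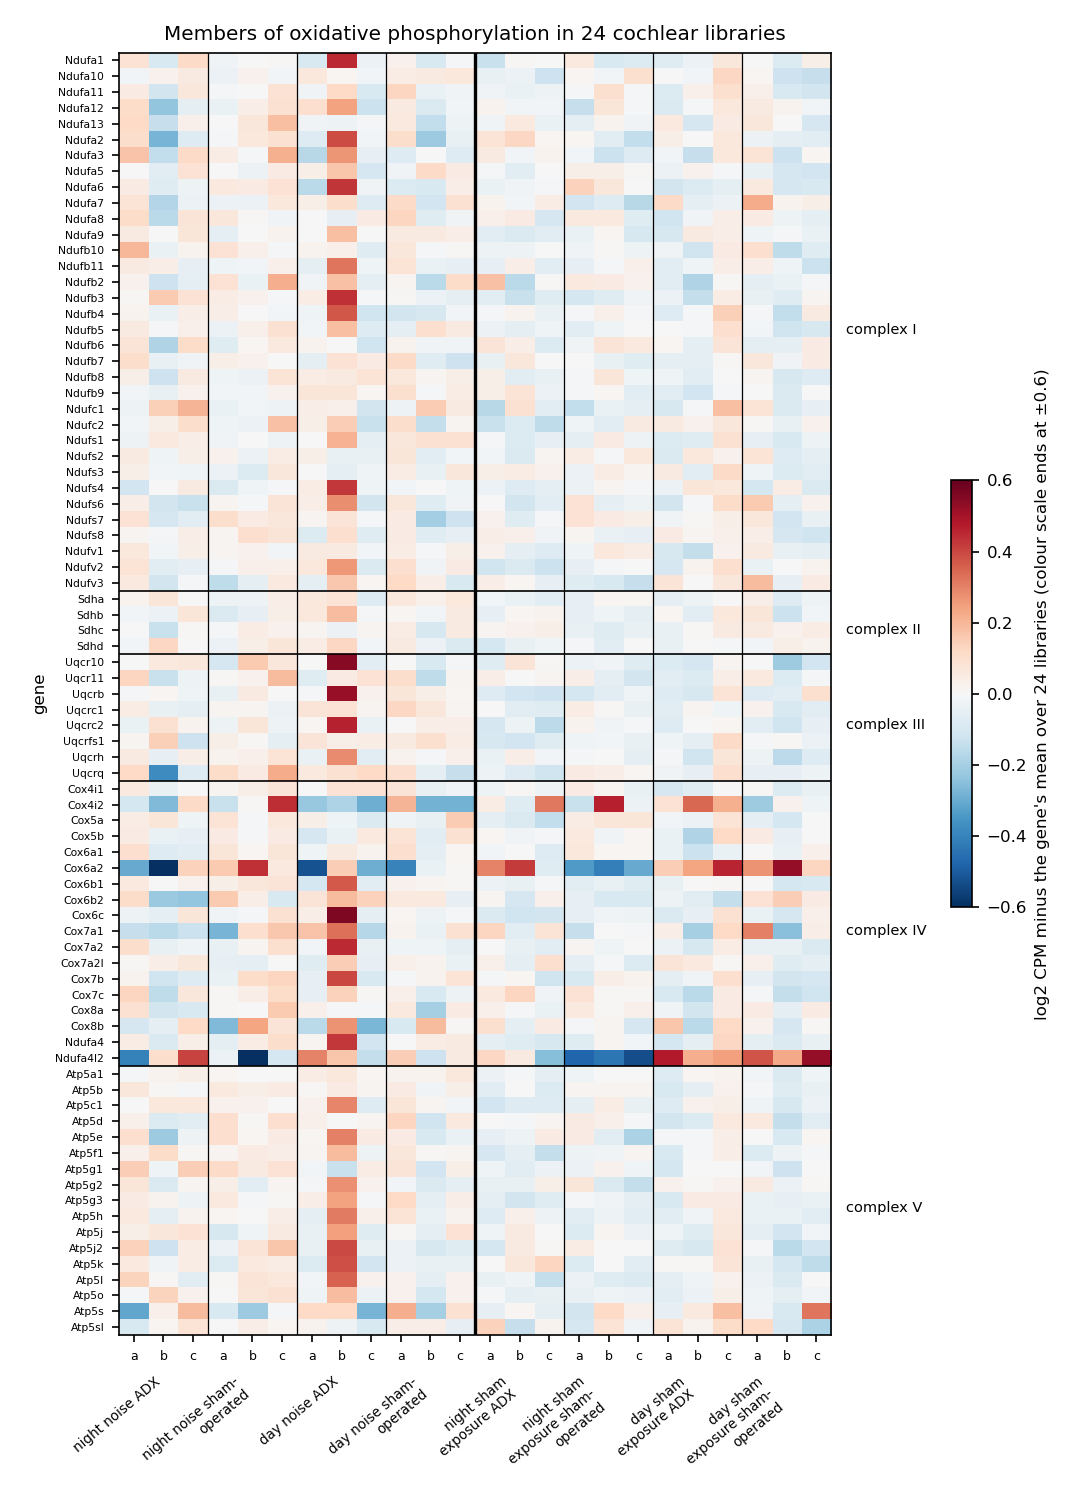
Heat map of log2 CPM minus the gene's mean over the 24 libraries (colour, red above and blue below the mean) for the 81 members, in rows by complex, and the libraries in columns, with the noise groups left of the sham exposure groups. Day noise ADX b is a red column, with a median of 0.16 over the members, and the minor isoforms Cox4i2, Cox6a2 and Ndufa4l2 vary most from library to library.

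The genes of the 5 complexes differed widely in level and little between libraries. Levels between genes are compared per length, as mean CPM per kilobase of the principal transcript (GENCODE vM21, GRCm38). Complex I ran from 28.5 for Ndufs4, an accessory subunit, to 146 for Ndufb8, a subunit of the membrane arm, with a median of 78.1 over its 34 genes. Complex II ran from 27.4 for the membrane anchor Sdhc to 112 for Sdha, and complex III from 41.0 for Uqcrq to 318 for the hinge protein Uqcrh, with medians of 83.1 and 112. The 11 widely expressed complex IV genes ran from 109 for Cox7b to 379 for Cox4i1 with a median of 236, and 15 subunits of complex V from 109 for Atp5j2 to 586 for Atp5b, the catalytic beta subunit, with a median of 174. Complexes IV and V therefore stood above complexes I and II, per length, in transcript level. When all annotated exons were taken as the length, the lowest and highest genes of complexes I, IV and V and the highest of complex II were others, and those of complex III were the same.

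**Figure D2:**
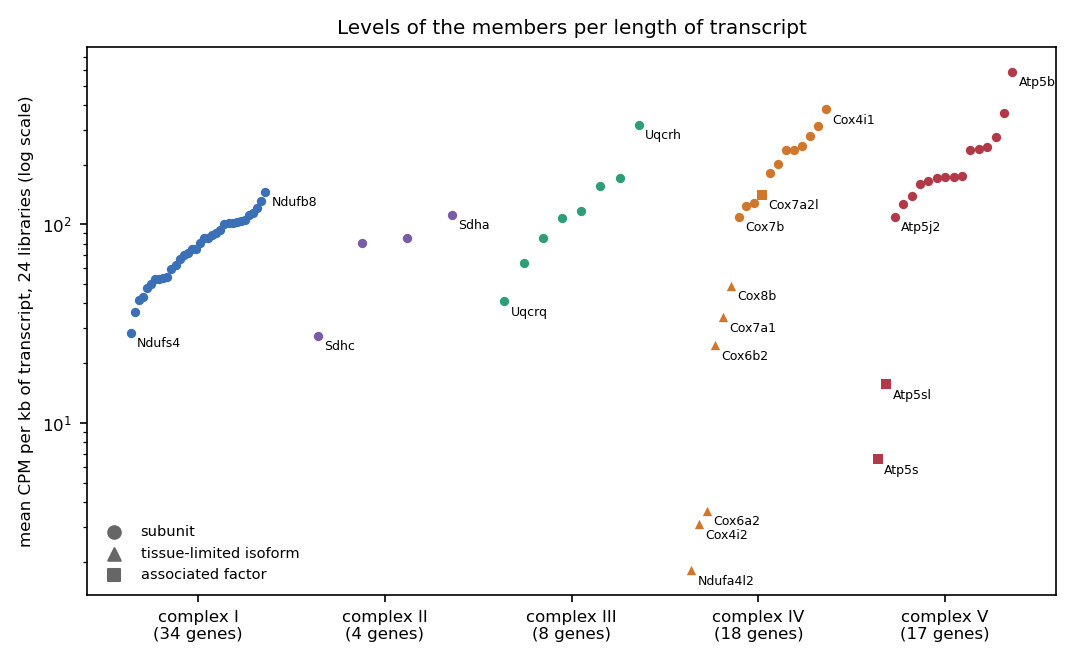
Mean CPM per kilobase of transcript of each member (logarithmic axis) by complex, with tissue-limited isoforms and associated factors marked apart from the subunits. Atp5b was highest at 586 and Ndufa4l2 lowest at 1.81.

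Atp5b is at chr10:128083273-128090391 on the plus strand (GRCm38). Its level lay between 1055 and 1176 CPM in all 24 libraries, and that of Atp5a1, the alpha subunit beside it in the catalytic head, between 849 and 941 CPM. Sdha lay between 306 and 342 CPM and Sdhc between 79.4 and 90.6 CPM. The median SD over libraries was 0.08 in log2 CPM for the members, against 0.15 for all 16607 genes and 0.11 for the 10191 genes whose mean log2 CPM reached 4. The highest library was less than 2 times the lowest for 79 of 81 members, the exceptions being Ndufa4l2 (2.89 times) and Cox6a2 (2.53 times). The 5 members with the largest SD were Ndufa4l2 (0.36), Cox6a2 (0.35), Cox4i2 (0.23), Cox7a1 (0.16) and Atp5s, the factor B of the ATP synthase (0.16), which were also the 5 with the lowest summed counts.

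In each isoform pair the form that most tissues use had the higher count. Cox4i2, an oxygen-sensitive form known from lung and vascular cells, had 0.595 to 1.08 counts per 100 counts of Cox4i1, with a median of 0.777. Cox6a2, the form of heart and skeletal muscle, had 0.911 to 2.24 per 100 of Cox6a1, with a median of 1.55, and Ndufa4l2, the hypoxia-inducible relative of the complex IV subunit Ndufa4, 0.559 to 1.73 per 100 of Ndufa4, with a median of 1.21. The other minor forms had higher shares. Cox7a1 had 9.45 to 14.2 counts per 100 of Cox7a2, with a median of 11.2. Cox6b2, known from testis, had 7.85 to 11.1 per 100 of Cox6b1, with a median of 9.41, and Cox8b 8.52 to 13.4 per 100 of Cox8a. The 3 highest shares of Cox8b were 13.4 in day noise sham-operated b, 12.5 in day noise ADX b and 12.1 in night noise sham-operated b. These libraries also had the 3 highest sums over the 5 genes of a brown fat list, at 105, 66.5 and 71.6 CPM, in a range of 32.6 to 105 CPM over all libraries. Of its genes Adipoq had 720 to 1889 counts per library, against 0 to 744 for Ucp1 and 30 to 281 for Cidea. Plin1 had 9 to 148 counts and Elovl3 0 to 10. The sum therefore does not stand for Ucp1 and Cidea alone. Ucp1 was at 0 in 5 libraries, Elovl3 in 8 and Cidea in none. With noise the brown fat sum was 35.5 to 105 CPM, against 32.6 to 56.2 CPM with sham exposure, and its part in the values of Cox8b was not tested. Per kilobase the 6 minor forms stood at 49.1 for Cox8b, 34.0 for Cox7a1, 24.6 for Cox6b2, 3.60 for Cox6a2, 3.08 for Cox4i2 and 1.81 CPM for Ndufa4l2. Cox7a2l, which helps join complexes III and IV, stood at 141, and the 3 genes of the same c-ring protein of complex V at 139 for Atp5g2, 174 for Atp5g1 and above both for Atp5g3. Of the 50-base stretches of Atp5g1 and Atp5g2 transcripts, 66.0% and 87.4% occur in transcripts of other genes, so the split between those genes is uncertain.

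The first question was whether noise altered these genes. With noise set against sham exposure over all 4 backgrounds, edgeR called 0 of the 81 members at an adjusted p of 0.05, against 4.81% of all genes, while 19 members, all of them higher, had an unadjusted p under 0.05 (23.5% against 18.7% of all genes). DESeq2 called 3 members higher (Atp5a1, Atp5b and Atp5f1) and limma voom 1 (Atp5f1). The signs leaned 1 way: 69 of 81 members had a positive change (85.2%), against 49.9% of all genes, and the members' median log2 change was 0.045, with a median of -0.000 over all genes. The sizes were small. The 95% interval of the change lay within 1.2-fold in either direction for 78 of the 81 members.

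Atp5f1, subunit b of the peripheral stalk that holds the ATP synthase head in place, had the smallest adjusted p, and it was picked out after its values were seen. Its level was 205, 231 and 198 CPM in day noise ADX, against 190.3, 201 and 207 CPM in day sham exposure ADX. By day in sham-operated mice it was 212, 203 and 204 CPM with noise, against 191, 198 and 201 CPM with sham exposure. At night it was 207, 217 and 203 CPM with noise, against 189, 195 and 184 CPM with sham exposure in ADX mice, and 205, 209.8 and 208 CPM, against 198, 199 and 205 CPM, in sham-operated mice. The ranges overlapped only in the day ADX pair and came within rounding at 205 CPM in the night sham-operated pair. The pooled change was 0.09 in log2 (SE 0.03, 95% interval 0.03 to 0.14, adjusted p = 0.0617 by edgeR's quasi-likelihood test), or 1.06-fold, and 0.07 (adjusted p = 0.0972) without day noise ADX b. Stretches of 50 bases that also occur in transcripts of other genes make up 23.2% of its transcript.

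**Figure D3:**
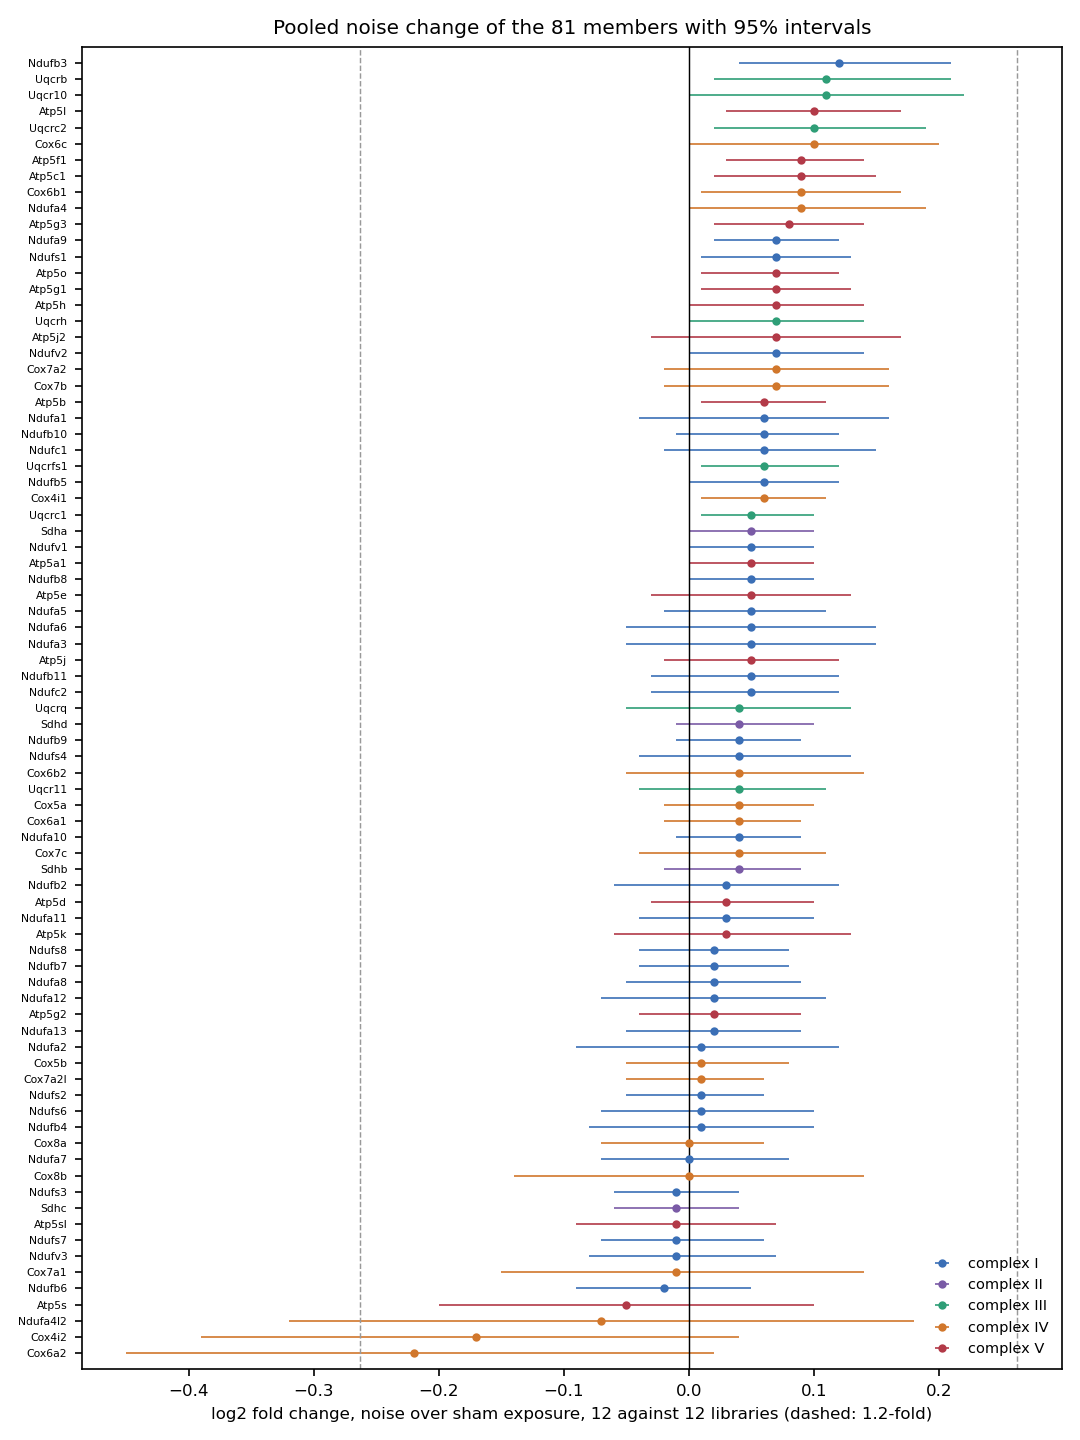
Log2 change of each of the 81 members with noise against sham exposure, pooled over time and surgery (horizontal axis), with its 95% interval, ordered by size and coloured by complex, and with dashed lines at 1.2-fold. Most points lie right of 0, and Cox6a2 and Cox4i2 lie farthest left.

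The medians of all 5 complexes were positive, and those of complexes III and V were the highest. All 8 members of complex III had positive changes, with a median of 0.07, and 5 had an unadjusted p under 0.05. In complex V 15 of 17 were positive, with a median of 0.06, and 9 had such a p. Complex I had 30 of 34 positive with a median of 0.04 and 3 such p, complex IV 13 of 18 with 0.04 and 2, and complex II 3 of 4 with 0.04 and 0. Complexes V and III were also the highest in the library day noise ADX b, with medians of 0.24 and 0.19 above their 24-library means in log2 CPM, against 0.16 for complex IV, 0.15 for complex I and 0.10 for complex II. Without that library the pooled medians were 0.05 for complex III (8 of 8 positive), 0.04 for complex V (13 of 17), 0.03 for complex II (3 of 4), 0.02 for complex IV (11 of 18) and 0.01 for complex I (24 of 34). Ndufb3, an accessory subunit of complex I, had 39.4, 41.3 and 55.4 CPM as the lowest, median and highest of the 12 noise libraries, against 36.9, 38.9 and 42.0 CPM in the 12 sham exposure libraries. Its change was 0.12 (SE 0.04, adjusted p = 0.102), the largest of the 81, and was 0.08 (adjusted p = 0.120) without day noise ADX b. Among the complex III genes Uqcrb, which helps bind ubiquinone, and Uqcr10 both had a change of 0.11 (adjusted p = 0.184 and 0.266 by edgeR), and the core protein Uqcrc2 had one of 0.10 (adjusted p = 0.175), and each of the 3 had one of 0.06 without day noise ADX b. The lowest values were those of the minor isoforms Cox6a2 (-0.22, SE 0.11, adjusted p = 0.310) and Cox4i2 (-0.17, SE 0.10, adjusted p = 0.402), and none of these members passed the threshold.

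Each of the 4 backgrounds gave its own comparison of noise with sham exposure, and these share no libraries. Higher values with noise in all 4 were seen for 30 of 81 members (37.0%), against 9.15% of all genes tested, and lower values in all 4 for 0 members, against 10.6%. The 30 comprised 7 of 34 members in complex I (Ndufa8, Ndufa9, Ndufb3, Ndufb5, Ndufb10, Ndufb11 and Ndufv2), both Sdha and Sdhb in complex II, and 5 of 8 in complex III (Uqcrb, Uqcrc2, Uqcrfs1, Uqcrh and Uqcr10). Complex IV gave 6 of 18 (Cox4i1, Cox6a1, Cox6b1, Cox6c, Cox7a2 and Ndufa4) and complex V 10 of 17 (Atp5a1, Atp5b, Atp5c1, Atp5f1, Atp5g3, Atp5h, Atp5j, Atp5j2, Atp5l and Atp5o). The alpha and beta subunits of the head, the gamma shaft Atp5c1 and OSCP, the product of Atp5o, were among the last. The members are made together in many tissues and are not independent of each other, so these counts describe the list and carry no p. Without day noise ADX b the count was 19 (8.97% of all genes), 59 members had a positive pooled change and their median was 0.029. Without the 3 libraries with pituitary or cerebellar transcripts the count was 22, with 63 positive and a median of 0.036.

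**Figure D4:**
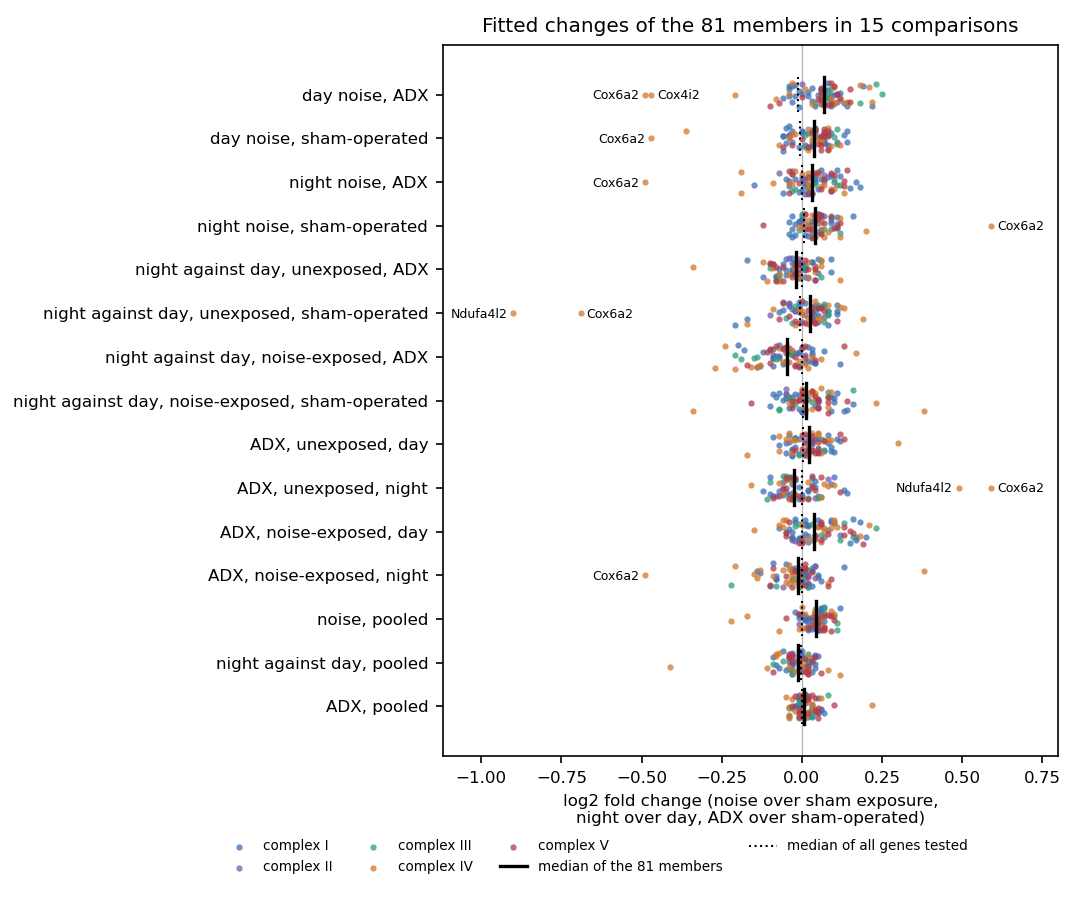
Log2 change of each of the 81 members (points, coloured by complex) in each of the 12 pairwise and 3 pooled comparisons, with the median of the members (solid bar) and of all genes tested (dotted bar). The 4 pairwise noise comparisons have their members' medians right of 0, from 0.030 to 0.069.

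By day in ADX mice the members' median change with noise was 0.069, against -0.011 for all genes, and 61 of 81 were positive. edgeR called 0 of 81, against 4.02% of all genes, and 12 members had an unadjusted p under 0.05 (14.8% against 23.5%). Uqcr10 had 67.1, 98.0 and 64.6 CPM in day noise ADX, against 63.3, 62.4 and 68.1 CPM in day sham exposure ADX. Uqcrb had 62.1, 89.5 and 63.3 CPM, against 59.1, 58.4 and 66.0 CPM. Library b was far above the other 2 in both genes, and both pairs of groups overlapped. Their log2 changes, 0.25 (SE 0.11, adjusted p = 0.167) and 0.23 (SE 0.09, adjusted p = 0.142), were the 2 largest here and did not pass in edgeR. The smallest adjusted p was that of Ndufb3, 0.128. Without day noise ADX b the members' median in this comparison was -0.005, with 37 positive, and the changes of Uqcr10, Uqcrb and Ndufb3 were 0.03, 0.04 and 0.06. Without day noise ADX a, which leaves b with 1 other noise library, edgeR called 5 members (Atp5l, Ndufa6, Ndufb3, Uqcr10 and Uqcrb).

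Cox6a2 and Cox4i2 had the 2 lowest changes of that comparison. Cox4i2 had 1.87, 1.93 and 1.78 CPM with noise, against 2.35, 2.84 and 2.59 CPM with sham exposure, so that the groups did not overlap, as was so for 13.7% of all genes in this direction. Its log2 change was -0.47 (SE 0.21, adjusted p = 0.168 by edgeR). The counts behind Cox4i2 were 35 to 80 per library.

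By day in sham-operated mice the members' median was 0.038 against -0.007 for all genes, 58 were positive, and edgeR called 0 of 81 (0.247% of all genes), with 5 at an unadjusted p under 0.05 (8.31% of all genes). In 15 members every noise library lay above every sham exposure library (8.19% of all genes), and in 2 every one lay below (5.82% of all). Ndufs1, the largest core subunit of complex I, and Ndufa10, an accessory subunit, had the largest changes, both 0.14 (SE 0.06 and 0.05, adjusted p = 0.479 and 0.406 by edgeR). At night in ADX mice the median was 0.030 against -0.001, with 55 positive, 0 called by edgeR (0.500% of all genes called) and 8 at an unadjusted p under 0.05 (10.2%). There 18 members had no overlap with noise above (6.83% of all genes) and 2 with noise below (7.68%). Ndufb3 had 40.9, 45.6 and 43.5 CPM with noise, against 38.9, 37.2 and 38.8 CPM with sham exposure, a log2 change of 0.18 (SE 0.08, adjusted p = 0.485 by edgeR), and Ndufc2, another accessory subunit, one of 0.17 (SE 0.07, adjusted p = 0.418). At night in sham-operated mice the median was 0.042 against 0.005, with 68 positive, 0 called by edgeR (0.717%) and 1 at an unadjusted p under 0.05 (8.41%). Here 16 members had no overlap with noise above (6.91% of all genes) and 0 with noise below (6.67%). In day ADX mice those counts were 6 above (12.2%) and 2 below (13.7%). DESeq2 and limma voom also called 0 members in each of these 4 comparisons. With the 3 libraries with pituitary or cerebellar transcripts left out, the members' median by day in sham-operated mice was 0.020, with 53 positive. At night it was then 0.011 with 45 positive in ADX mice (48.9% of all genes positive) and 0.039 with 71 positive in sham-operated mice.

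Cox6a2 had changes of opposite sign with noise by day and at night in sham-operated mice. By day in sham-operated mice it had 1.79, 2.32 and 2.39 CPM with noise, against 2.89, 3.48 and 2.61 CPM with sham exposure. At night in sham-operated mice it had 2.66, 3.27 and 2.49 CPM with noise, against 1.86, 1.78 and 1.93 CPM with sham exposure. Neither pair of groups overlapped, noise being lower by day and higher at night. In ADX mice noise was lower by day (1.63, 2.64 and 1.93 CPM, against 2.65, 2.84 and 3.32 CPM) and at night (1.92, 1.38 and 2.62 CPM, against 2.95, 3.20 and 2.26 CPM), without overlap by day, by the margin between 2.64 and 2.65 CPM, and with overlap at night. The log2 changes were -0.47 by day and 0.59 at night in sham-operated mice (adjusted p = 0.601 and 0.414 by edgeR) and -0.49 at both times in ADX mice (adjusted p = 0.182 by day and 0.454 at night). The change by day in ADX mice was -0.72 (adjusted p = 0.151) without day noise ADX b. With the 3 libraries with pituitary or cerebellar transcripts left out, it was -0.35 by day and 0.47 at night in sham-operated mice and -0.47 at night in ADX mice. The test of the difference between night and day in sham-operated mice gave 1.07 (SE 0.32, adjusted p = 0.382), and that between ADX and sham-operated at night -1.09 (SE 0.32, adjusted p = 0.749). Neither passed over the 16607 genes. Over the 5 interactions edgeR, DESeq2 and limma voom called 0 members in each, and edgeR called at most 0.00602% of all genes, with 2 or 3 members at an unadjusted p under 0.05. That p was reached by 16.4% (noise by surgery, day), 6.36% (the same, night), 11.7% (noise by time, ADX), 7.3% (the same, sham-operated) and 6.27% (time by surgery, unexposed) of all genes.

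A skeletal muscle list was read beside Cox6a2. Its 12 genes summed to 16.5 to 108 CPM, and the 3 highest sums were 100.0 CPM in night noise sham-operated b, 108 CPM in day sham exposure ADX c and 101 CPM in day sham exposure sham-operated b. The same 3 libraries had the highest Cox6a2, at 3.27, 3.32 and 3.48 CPM. Night sham exposure ADX b had 3.20 CPM with a muscle sum of 21.4 CPM. In noise libraries the sum was 16.5 to 100.0 CPM, against 17.7 to 108 CPM in sham exposure libraries. Of the defining muscle genes Ckm and Myh1 were at 0 in 1 library each and Myh2 in 3. The part of muscle tissue in the result was not tested. Cox6a2 (chr7:128205435-128206387, minus strand) had 28 to 97 counts per library, and its exons overlap those of Itgad on the opposite strand by 70 bases.

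**Figure D5:**
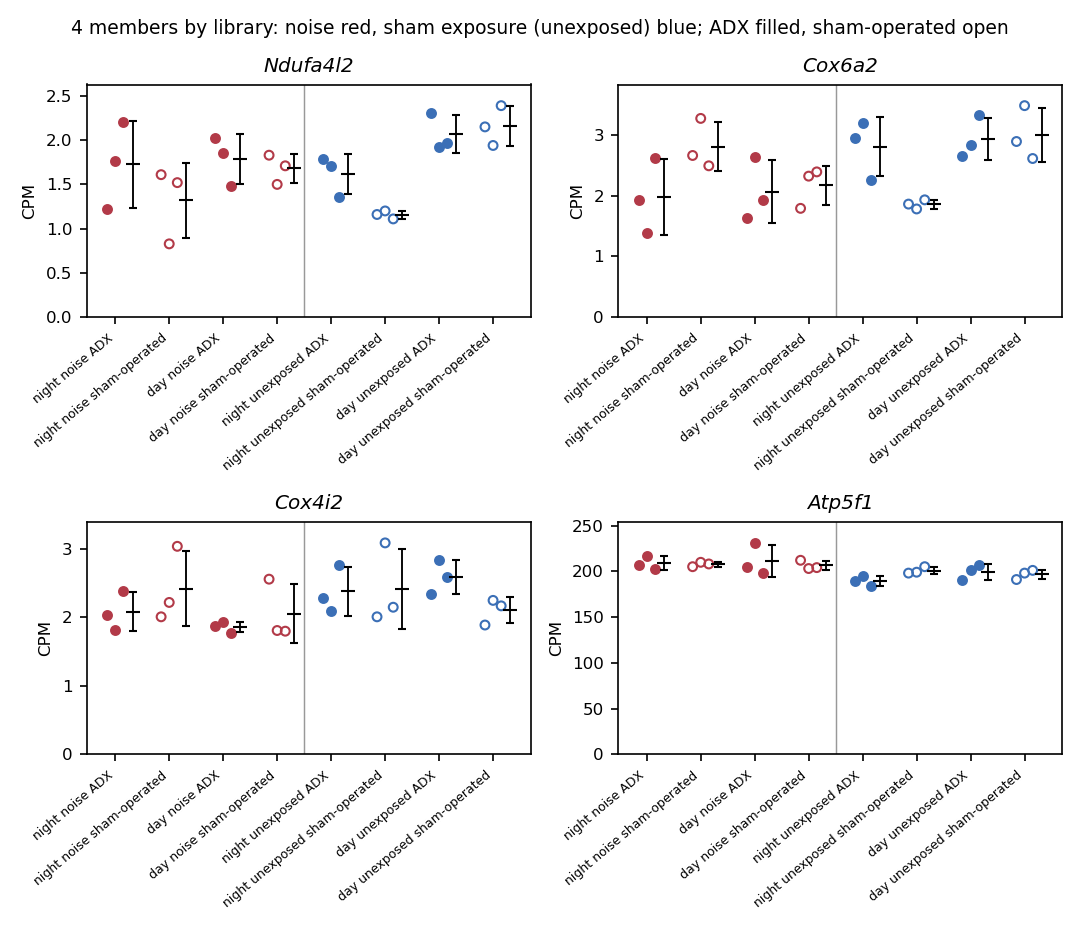
CPM (linear axis) of Ndufa4l2, Cox6a2, Cox4i2 and Atp5f1 in each library, by time and surgery, with noise (red) left of sham exposure (blue), ADX filled, sham-operated open, and bars of mean ± SD over 3 libraries. Ndufa4l2 is lowest in night sham exposure sham-operated, at 1.11 to 1.20 CPM, apart from the noise library at 0.828 CPM, and Cox6a2 with noise lies below sham exposure in sham-operated mice by day and above it at night.

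The second question was how night differed from day. Ndufa4l2, whose product replaces or resembles Ndufa4 and lowers respiration in hypoxic cells, was the 1 member that edgeR called over the 4 backgrounds, and it was lower at night. Its lowest, median and highest levels were 0.828, 1.44 and 2.20 CPM in the 12 night libraries, against 1.48, 1.93 and 2.39 CPM in the 12 day libraries. The ranges overlapped, with means of 1.46 ± 0.380 CPM at night and 1.92 ± 0.282 CPM by day (SD, n = 12 each). The log2 change was -0.41 (SE 0.12, 95% interval -0.65 to -0.16, adjusted p = 0.0430 by edgeR), or 0.753-fold, in a comparison in which 6.01% of all genes were called and 2.25% were called lower. With 1 of 81 members called (1.23%), the members' share stood below that background. The call rested on 19 to 65 counts per library and was not stable: it held in 5 of the 24 fits without 1 library (adjusted p up to 0.0808), and the adjusted p was 0.0917 without the 3 libraries with pituitary or cerebellar transcripts and 0.0553 without the filter. DESeq2 and limma voom called it, at adjusted p of 0.0277 and 0.0151.

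Of the 4 backgrounds the widest difference was in unexposed sham-operated mice. There Ndufa4l2 had 1.16, 1.20 and 1.11 CPM at night, against 2.15, 1.94 and 2.39 CPM by day. The groups did not overlap, as in 6 members with night below (7.07% of all genes) and 9 with night above (8.40%). The log2 change was -0.90 (SE 0.24, 95% interval -1.40 to -0.40, adjusted p = 0.130 by edgeR), which did not pass, while limma voom called it. In unexposed ADX mice it had 1.79, 1.71 and 1.36 CPM at night, against 2.31, 1.92 and 1.97 CPM by day (log2 change -0.34), without overlap, as in 7 members (8.39% of all genes), while 1 member had night above (7.77%). With noise it had 1.22, 1.77 and 2.20 CPM at night, against 2.03, 1.85 and 1.48 CPM by day, in ADX mice (-0.05), and 1.61, 0.828 and 1.52 CPM at night, against 1.83, 1.50 and 1.71 CPM by day, in sham-operated mice (-0.34, adjusted p = 0.545). These groups overlapped in noise-exposed mice of both kinds. The gene is known as a marker of pericytes and smooth muscle, whose 8-gene list summed to 304, 327 and 339 CPM in night sham exposure sham-operated, against 357, 309 and 359 CPM in day sham exposure sham-operated, and to 304 to 436 CPM at night, against 309 to 409 CPM by day, over all libraries. None of the 8 genes was at 0 in any library, and their part in the result was not tested. Ndufa4l2 (chr10:127514967-127517154, plus strand) overlaps exons of Shmt2 on the opposite strand by 32 bases.

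The other members did not pass the test by time. Over the 4 backgrounds the members' median was -0.011 (all genes -0.002), 34 of 81 were positive, and 4 had an unadjusted p under 0.05 (4.94% against 21.3% of all genes). The median was 0.008, with 48 positive, without day noise ADX b. The medians of the 5 complexes lay between -0.02 and -0.01 with all libraries. In noise-exposed ADX mice 23 members were positive at night (28.4% against 50.3% of all genes), with a median of -0.047, whereas without day noise ADX b 52 were positive and the median was 0.023. In unexposed ADX mice 28 were positive (34.6% against 49.5%), with a median of -0.018. In sham-operated mice 48 were positive both unexposed (59.3%) and noise-exposed (59.3% against 50.6% of all genes), with medians of 0.026 and 0.014. In the pairwise comparisons edgeR called 0 of 81 members in unexposed ADX mice (0.0181% of all genes called), unexposed sham-operated mice (0.265%), noise-exposed ADX mice (0.620%) and noise-exposed sham-operated mice (1.12%), with 2, 7, 7 and 1 members at an unadjusted p under 0.05 (6.25%, 11.2%, 18.3% and 15% of all genes). DESeq2 called 0 in each, and limma voom 0 apart from Ndufa4l2 in unexposed sham-operated mice. Cox6b2 in noise-exposed ADX mice had 14.7, 11.7 and 11.6 CPM at night, against 14.3, 15.5 and 14.9 CPM by day. Libraries b and c at night were lower than every day library and library a was not. Its log2 change was -0.24 (SE 0.09, adjusted p = 0.172 by edgeR), and it passed when night noise ADX a, the library with pituitary transcripts, was left out. Cox7a1 in the same comparison had 12.1, 11.9 and 12.1 CPM at night, against 11.8 to 16.7 CPM by day, a change of -0.27 (adjusted p = 0.289). Cox6a2 in unexposed sham-operated mice stood at -0.69 in log2 (SE 0.23, adjusted p = 0.196).

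The third question was the effect of adrenalectomy. Pooled over noise and time, edgeR called 0 of 81 members, against 3.20% of all genes, and 2 had an unadjusted p under 0.05: Atp5k, subunit e of the ATP synthase, at 0.10 (SE 0.04, adjusted p = 0.254) and Cox7a2l at 0.06 (SE 0.03, adjusted p = 0.228). The members' median was 0.005, with 48 positive, or -0.007 with 25 positive without day noise ADX b, and the 95% interval lay within 1.2-fold for 80 of 81. Each pairwise comparison also gave 0 calls by edgeR: unexposed by day (0.0422% of all genes called, 1 member at an unadjusted p under 0.05), unexposed at night (1.58%, 2 members), noise-exposed by day (0%, 6 members) and noise-exposed at night (0%, 2 members). An unadjusted p under 0.05 was reached by 11.3%, 14.9%, 11.7% and 8.55% of all genes in these 4, in that order, and by 16.9% pooled. DESeq2 called 0 in each of the 5, and limma voom called 1, Cox5a, in unexposed mice at night.

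Cox5a, a matrix-side subunit of complex IV, had 125, 122 and 118 CPM in night sham exposure ADX, against 135, 137 and 137 CPM in night sham exposure sham-operated. Every ADX library was below every sham-operated one, as in 17 of the 81 members (10.9% of all genes), and 8 members stood the other way (11.4% of all). Its log2 change was -0.16 (SE 0.05, 95% interval -0.27 to -0.05), with an adjusted p of 0.126 by edgeR and 0.0307 by limma voom. Cox6a2 was higher in the same ADX mice, at 2.95, 3.20 and 2.26 CPM, against 1.86, 1.78 and 1.93 CPM (log2 change 0.59, SE 0.22, adjusted p = 0.194). Ndufa4l2 had 1.79, 1.71 and 1.36 CPM in night sham exposure ADX, against 1.16, 1.20 and 1.11 CPM in night sham exposure sham-operated, without overlap (log2 change 0.49, SE 0.24, adjusted p = 0.348). Uqcr10 and Cox6c had the largest changes in noise-exposed mice by day, 0.23 and 0.21, both with library b of day noise ADX highest (adjusted p = 0.422 and 0.417 by edgeR), and were 0.01 and -0.00 without that library. The members' median there was 0.037, with 56 positive, and was -0.026, with 27 positive, without it. Uqcrq, a small subunit of complex III, had 67.7, 47.8 and 58.6 CPM in night noise ADX, against 67.0, 64.4 and 72.4 CPM in night noise sham-operated, a change of -0.22 (SE 0.08, adjusted p = 0.485), and passed without night noise ADX a.

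Genes around the respiratory chain were read from lists of 12 electron carriers and subunits outside the symbol pattern, 40 assembly factors, 19 genes of the tricarboxylic acid cycle and pyruvate dehydrogenase, 17 regulators of mitochondrial biogenesis and 76 mitochondrial ribosomal proteins. With noise pooled, 6 of the 164 listed genes were called (3.66%), against 4.81% of all genes. Of the 12 carriers 3 rose and 0 fell, and all 12 had positive changes. Cycs, the cytochrome c that carries electrons between complexes III and IV, had 123, 135 and 152 CPM as the lowest, median and highest of the noise libraries, against 114, 121 and 133 CPM with sham exposure. It rose by 0.15 in log2 (SE 0.03, adjusted p = 0.00369 by edgeR), with ranges that overlapped. Slc25a5, which exchanges ADP for ATP across the inner membrane, had 253, 265 and 305 CPM, against 233, 246 and 266 CPM, and rose by 0.14 (adjusted p = 0.00419). Etfa, which passes electrons from fatty acid oxidation to ubiquinone, rose by 0.13 (adjusted p = 0.0204). Stretches of 50 bases that also occur in transcripts of other genes make up 28.5% of Cycs and 46.6% of Slc25a5.

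Of 40 assembly factors 1 fell with noise, Cox15, which makes the haem a of complex IV (-0.10, adjusted p = 0.0465 by edgeR), and 16 had positive changes. Of the 19 cycle genes edgeR called 0, with 16 positive (49.9% of all genes were) and 10 at an unadjusted p under 0.05, which 18.7% of all genes reached, and without day noise ADX b 16 were positive and 8 had such a p. Of 17 regulators 1 rose, Pprc1, a coactivator related to PGC-1 (0.15, adjusted p = 0.0308). Of 76 mitochondrial ribosomal genes 1 rose, Mrps6, and 54 were positive. Mrps6 had 48.9, 54.3 and 63.4 CPM with noise, against 37.7, 45.0 and 53.0 CPM with sham exposure, a log2 change of 0.29 (adjusted p = 7.38e-05). Its exons overlap those of Slc5a3, a myo-inositol transporter, and Gm49711 on the same strand, so their reads cannot be told apart. Without day noise ADX b 5 of these 6 calls remained and Cox15 had an adjusted p of 0.0879. Without the 3 libraries with pituitary or cerebellar transcripts Etfa, Cox15 and Pprc1 had adjusted p of 0.0746, 0.104 and 0.0776, and the other 3 remained.

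By day in ADX mice 4 of the 164 listed genes rose with noise (2.44%, against 4.02% of all genes called): Mrpl22 by 0.42 (adjusted p = 0.0302), Atpif1, the inhibitor of ATP hydrolysis by complex V, by 0.40 (adjusted p = 0.0191), Mrps6 by 0.36 (adjusted p = 0.0152) and Pprc1 by 0.35 (adjusted p = 0.0174). Shared 50-base stretches make up 33.4% of Mrpl22. Without day noise ADX b only Pprc1 of these 4 passed (0.36, adjusted p = 0.0469), and Mrpl22 had 0.25, Atpif1 0.31 and Mrps6 0.35 (adjusted p = 0.190, 0.117 and 0.0648 by edgeR). At night in ADX mice Mrps6 rose by 0.45 (adjusted p = 0.00727, or 0.0737 without the 3 libraries with pituitary or cerebellar transcripts). At night against day, pooled, Suclg2, a subunit of a succinate-CoA ligase, fell by 0.18 (adjusted p = 0.000682), Idh2, the mitochondrial NADP-dependent isocitrate dehydrogenase, fell by 0.09 (adjusted p = 0.0327) and Cox15 fell by 0.11 (adjusted p = 0.0242). The estrogen-related receptor Esrrb rose by 0.16 at night (adjusted p = 0.0434). Esrrb is also 1 of the 8 stria vascularis genes summed above, and the part of stria cells in its change was not tested. Of the mitochondrial ribosomal genes Mrps25 rose by 0.15, Mrpl38 by 0.12 and Mrpl36 by 0.10, and Mrps18b fell by 0.16 (adjusted p = 0.0205, 0.0490, 0.0403 and 0.0299, in that order). These were 8 of 164 listed genes (4.88%), against 6.01% of all genes called. Suclg2 passed both without day noise ADX b (adjusted p = 0.00115) and without those 3 libraries (0.00496). The other 7 each failed at least 1 of the 2 fits. With ADX Mrps6 fell by 0.34 in unexposed mice at night (adjusted p = 0.0347) and by 0.17 pooled (adjusted p = 0.0256).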

How the data were processed

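RNA of whole cochleae was made into libraries with the TruSeq stranded mRNA kit from 300 ng of total RNA and sequenced as 50-base single reads in pools of 6, per the labels' protocols. The authors deposited raw counts per gene symbol; TopHat2 2.0.11, HTSeq 0.6p1 and mm10 are named in the submitters' processing notes, while the annotation and strand setting of the counting are not given in the sources used here. Members and lists were chosen with earlier results of these data known. Counts of all 24 libraries were fitted together in edgeR 4.0.16 (R 4.3.3; filterByExpr, TMM, robust quasi-likelihood test) with 1 mean per group. There were 20 comparisons: 12 pairwise, 3 pooled and 5 interactions. The Benjamini-Hochberg adjustment ran over all 16607 genes, with a threshold of 0.05. The fit was tested on simulated counts. The common biological coefficient of variation was 0.0991. Intervals are 95% intervals of the fit. Alternatives used DESeq2 1.42.0, limma 3.58.1, another scaling, no filter, a letter block and libraries left out.

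Members named in the text are those past the threshold, the largest 2 changes in each direction in a pairwise comparison, the isoform sets, the highest and lowest of each complex per length and the 5 with the largest SD; any other was named after its values were seen. From the other lists the rule named up to 4 genes past the threshold per comparison; where 6 or 8 passed, all were named, those beyond 4 after their values were seen. Levels per kilobase used the principal transcript of GENCODE vM21 (GRCm38). A transcript's 50-base stretches were looked for in other annotated transcripts. Promoter sequences are from RefSeq (GRCm38.p6).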

Additional observations from a re-analysis of the deposited data

How the results depend on the processing

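Of 341 recomputed counts of members called, 308 were unchanged and 33 moved, 7 of these in fits that did not leave out a single library. With limma voom 1 member was called for ADX in unexposed mice at night, 1 for night against day in unexposed sham-operated mice and 1 for noise pooled, where DESeq2 called 3. Without the 3 libraries with pituitary or cerebellar transcripts 1 member was called for night against day in noise-exposed ADX mice and 0 for night against day pooled, where no filter on low counts also gave 0. Leaving out 1 library at a time, the counts ranged over 0 to 5 for day noise in ADX mice, 0 to 3 for noise pooled (without day noise ADX a: Atp5f1, Atp5l and Ndufb3; without day noise ADX c: Atp5c1, Atp5f1 and Ndufb3; without night noise ADX c: Atp5f1), 0 to 2 for night against day in noise-exposed ADX mice, 0 to 1 for night against day pooled and 0 to 1 for ADX in noise-exposed mice at night. Members higher with noise in all 4 comparisons ranged over 19 to 34 and members with a positive pooled noise change over 59 to 74. Higher in all 4 were 30 with DESeq2's size factors, DESeq2, no filter and the replicate block and 29 with limma voom. The causes of these differences were not tested. For Ndufa4l2 at night against day, pooled, the log2 change ranged over -0.46 to -0.35 and was -0.32 without the 3 libraries.

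Whether the labels' letters pair the libraries was not settled. Residuals of same-letter libraries correlated at -0.27 to 0.41 (median 0.02), and 20 of 84 pairs were over 0.1. Yet 16 of 24 libraries correlated best with one of their own letter, a hint from the data only. With the letter as replicate block no count of members called changed, and Ndufa4l2 was still called in the pooled comparison of night with day. At 3 libraries a group the median SE of a member's log2 change was 0.07 in a pairwise comparison, 0.03 pooled and 0.10 in an interaction, and pairwise intervals lay within 1.2-fold for 54 to 70 of the 81 members. Changes smaller than 1.2-fold could be missed in a pairwise comparison at this depth and number of libraries. In the pooled comparisons such changes did pass in some genes outside the members, as for Cycs with noise (1.11-fold, adjusted p = 0.00369 by edgeR).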

Other observations

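Values that belong to no comparison concern sequence that genes share or overlap. Ndufs5, a complex I subunit left out of the members, had 0 counts in all libraries. Of the 50-base stretches of its transcript 41.2% also occur in the pseudogene BC002163, and their part in the 0 counts was not tested. Over the members 34 of 81 shared at least 1 stretch with other transcripts, and for 5 the shared part was over 50%: Atp5g2 (87.4%), Atp5l (68.5%), Atp5g1 (66.0%), Cox7c (53.0%) and Atp5h (50.5%). Exons of 26 members overlap those of a gene on the opposite strand, and exons of 5 members those of a gene on the same strand. These 5 were Ndufb9 (19.5% of its exon bases), Atp5o (12.3%), Atp5g2 (4.48%), Ndufb8 (4.26%) and Ndufb2 (2.58%). The part of these overlaps in the counts was not tested.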
